A study of Mus musculus with 45 samples.

Results

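Solitary H3K9ac domains of promoter-like size were examined in hippocampi from 2 kinds of neurodegenerative mice. A domain is a stretch of the genome (build mm9) in which the authors found reads of acetylated histone H3 enriched. Members were chosen by position alone: autosomal domains of 1000 to 2500 bp, with no other domain edge within 5 kb of either end and with more than 10 but fewer than 200 other domain midpoints within 1 Mb. The rule found 5727 members among 44165 domains (13.0%), and it used no read counts. The domains were themselves called from reads of this series, though, and wider members had more of the mark per base. The choice is therefore not independent of level. Members covered 9.61 Mb, which was 18.0% of the bases in all domains, and lay on all 19 autosomes with 175 to 501 members each. Whether members lie at annotated start sites was not checked, since no annotation of mm9 was used here, so they are named by their coordinates and not by genes.

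H3K9ac is acetylation of lysine 9 on the tail of histone H3. It is laid down by acetyltransferases such as GCN5 and PCAF and removed by histone deacetylases. The mark is found around the start sites of active genes and, at lower levels, at active enhancers, and its level at a start site usually goes with how much the gene is transcribed. A single compact domain is the usual picture of an active housekeeping-type promoter, whereas highly expressed tissue-specific genes often carry broad or clustered domains.

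The tau mice carry the P301S mutant of human MAPT, the gene of tau, and were set against wild type mice. The 6-month mice were females, with 2 libraries from tau and 3 from wild type mice, and the 11-month mice were males, with 3 libraries each, so age and sex change together. The sources used here do not name the promoter that drives the transgene. In double-transgenic CK-p25 mice, p25, a truncated activator of the kinase Cdk5, is switched on in forebrain neurons. These mice and their CK control littermates were females of 3 months at the start and were taken 2 or 6 weeks after induction, at 3.5 or 4.5 months, with 3 libraries per group. The antibody lot differed between the 2 models, so each was analysed apart. No label ties a library to an animal of its own, so p-values here measure the spread between these libraries, which may be technical. The question of each comparison is where acetylation in disease mice departs from their controls. In whole hippocampus, fewer cells of a type and less mark per cell cannot be told apart.

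Between 4.10 and 6.18 M reads per library fell in domains in the tau series, and between 0.996 and 4.13 M in the libraries of the CK-p25 series. The median member held 149 to 223 reads in a tau series library and 32 to 139 in a CK-p25 series library. The labels list a cross correlation per library, which grows with the enrichment of a ChIP. At 11 months its mean was 0.228 ± 0.0263 in the tau group and 0.313 ± 0.0250 in the controls (SD, n = 3 each), and the groups were apart. At 6 months it was 0.243 ± 0.0164 (n = 2) and 0.245 ± 0.00303 (n = 3). Results at 11 months are therefore also given from a fit that has it as a covariate.

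Members held more of the mark per kb than domains within the same width limits that had another domain within 5 kb. Their median level, in CPM of the reads in domains per kb of width, over the 23 libraries, was 20.8, with 10% of members under 8.78 and 10% over 33.6. Domains within the same limits of width and neighbourhood density but with another domain within 5 kb (n = 6558) had a median of 13.5 CPM per kb. They are called domains of the same width below, though the sets were not matched within the limits. At 20 CPM per kb or more stood 52.1% of members and 34.1% of the domains with a close neighbour, and under 10 CPM per kb 15.3% and 36.7%. The median member was 1664 bp wide, had 52 other domains within 1 Mb and lay 18350 bp from the nearest one. Domains with a close neighbour had a median width of 1544 bp and a median of 78 other domains within 1 Mb. Wider members had higher levels, and the part of width in the difference between the sets was not tested. These are descriptions of the sets, without a test.

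**Figure D1:**
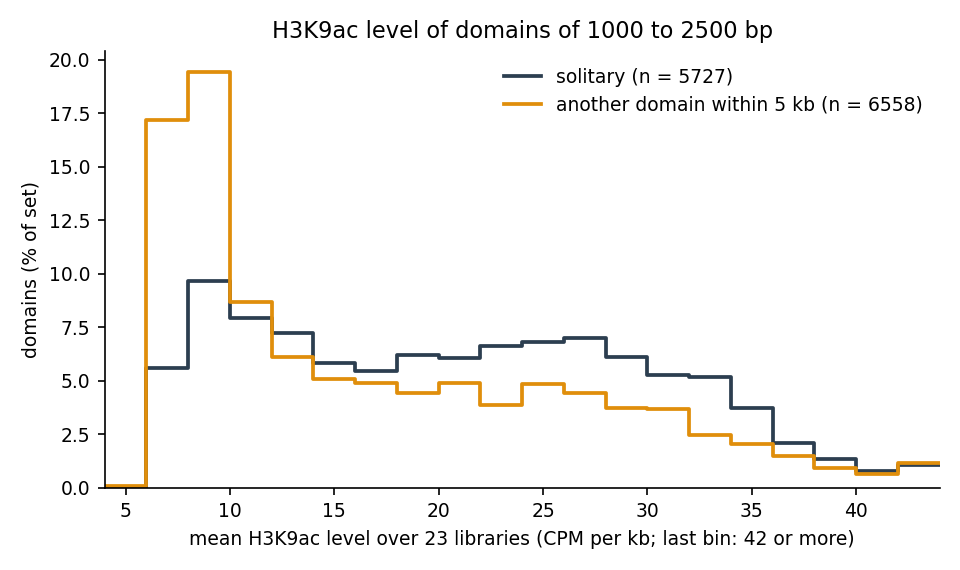
Share of domains (y axis, % of set) by mean H3K9ac level over 23 libraries (x axis, CPM per kb, bins of 2) for the 5727 solitary members and the 6558 domains of the same width with another domain within 5 kb. From 8 to 10 CPM per kb lie 9.64% of the solitary set and 19.4% of the other set, and from 26 to 28 CPM per kb 6.98% and 4.42%.

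Levels ran from 5.69 to 63.7 CPM per kb, and the order of members was nearly the same in both mouse series (Spearman's rho 0.977 over 5727 members, whose widths both axes share). The highest, chr1:90172878-90174858, held 135 ± 3.46 CPM in wild type and 143 ± 7.15 CPM in tau mice at 11 months (SD, n = 3). Its log2 change there was 0.09 ± 0.06 (SE; edgeR adjusted p = 0.369), and in CK-p25 mice at 2 and 6 weeks it was 0.04 ± 0.08 and 0.02 ± 0.10, so no difference was detected. The member with the smallest spread was chr16:38521478-38523913, with a coefficient of variation of 4.24% over all 23 libraries. It had 80.0, 85.4 and 77.2 CPM in wild type and 83.9, 81.9 and 82.4 CPM in tau libraries at 11 months. The tau values lay inside the range of the wild type ones.

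Replicates of a member varied little. The biological coefficient of variation, the spread between replicates beyond counting error as estimated by edgeR, had a median of 4.90% in the tau series and 6.24% in the CK-p25 series. It was 8.09% and 9.10% for members under 10 CPM per kb and 3.90% and 5.08% for those at 30 or more. For domains of the same width with a close neighbour the medians over all levels were 6.32% and 7.37%. Within the class from 10 to 20 CPM per kb the sets stood at 6.22% and 6.24% in the tau series.

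Members as a whole took a larger share of reads in the older tau mice. Of reads in domains, 22.3%, 22.6% and 22.4% fell in members in the tau libraries at 11 months and 21.7%, 21.7% and 22.0% in the wild type libraries, with no overlap (means 22.4% ± 0.145 and 21.8% ± 0.172, SD, n = 3). At 6 months the shares were 21.3% and 21.1% in tau and 21.2%, 21.4% and 21.4% in wild type mice, which overlapped. In CK-p25 mice they were 20.8%, 21.1% and 20.8% at 2 weeks against 20.7%, 20.6% and 20.7% in CK mice. At 6 weeks they were 21.0%, 20.9% and 21.2% against 20.7%, 20.6% and 20.5%. The groups did not overlap at either time. The larger share was not found in members alone. Domains of the same width with a close neighbour held 18.9% to 19.1% of reads in tau and 18.6% to 18.7% in wild type libraries at 11 months, and 18.7% to 19.0% in CK-p25 against 18.3% to 18.5% in CK libraries at 6 weeks, again with no overlap. Solitary domains over 2500 bp went the other way, with 16.4% ± 0.195 against 16.7% ± 0.0798 at 11 months and 16.4% ± 0.102 against 16.7% ± 0.111 at 6 weeks (SD, n = 3). Their shares overlapped at 2 weeks (16.6% ± 0.0924 in CK-p25 and 16.8% ± 0.179 in CK mice, n = 3) and at 6 months (16.6% and 16.8% in the tau libraries and 16.7% in each of the 3 wild type libraries). No test was made of these shares.

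At 6 months no change was detected in tau mice. In edgeR's quasi-likelihood test, with Benjamini-Hochberg adjustment across the 44105 domains tested and a threshold of 0.05, 0 of 5727 members passed, against 0% of all domains. At an unadjusted p under 0.05 stood 191 members (3.34%), against 3.24% of all domains, and the DESeq2 Wald test also called 0. Both shares lie under what a threshold of 0.05 gives with no effect, so the test was a cautious one at this age. All groups of the tau series shared 1 estimate of the spread in the fit. With the compared groups alone in the fit 1 member passed. The median standard error of a member's log2 change was 0.12. In simulated counts of this design 95 of 100 domains changed 2-fold and 73 of 100 changed 1.5-fold were recovered.

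At 11 months 831 members passed: H3K9ac in tau mice was above wild type at 330 and under it at 501. That is 14.5% of members against 11.96% of all 44105 domains tested. By direction the shares were 5.76% higher and 8.75% lower in members and 4.40% and 7.56% in all domains, so members stood close to the background. The median log2 change of called members was 0.50 for gains and -0.50 for losses. Of the 5727 members 17 gains and 16 losses reached 2-fold, against 396 and 387 of all 44105 domains, a smaller share in members. The median over all members was 0.01. Domains of the same width with a close neighbour were called at 16.9%, solitary domains over 2500 bp at 26.9% and solitary domains under 1000 bp at 5.87%. Those sets also differ in the reads a domain holds.

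The balance of gains and losses turned with the scaling. Scaled by library totals alone, 489 members stood above and 409 under wild type at 11 months, and the median log2 change of all domains went from 0.01 to 0.05. With cross correlation as a covariate 97 members passed, against 1.58% of all domains. Without tau replicate 3 at 11 months 533 members passed. With the compared groups alone in the fit the count was 688.

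The leading gain by adjusted p was chr6:121194991-121197321, 2331 bp wide and 24.8 kb from the nearest other domain (gain 2 in the plot of values by library). It held 19.3, 18.7 and 19.0 CPM in wild type and 43.4, 31.3 and 53.2 CPM in tau libraries at 11 months. Every tau library was above every wild type library, and the log2 change was 1.19 ± 0.12 (SE; edgeR adjusted p = 4.98e-11). At 6 months it held 23.1, 24.4 and 22.2 CPM in wild type and 23.3 and 22.1 CPM in tau libraries, which overlapped. The next, chr14:56222081-56224150 (gain 1), had 25.2, 26.3 and 28.6 CPM in wild type and 49.3, 42.6 and 61.8 CPM in tau libraries at 11 months. This domain was 2070 bp wide, its nearest neighbour lay 6.78 kb away, and its log2 change was 0.95 ± 0.11 (edgeR adjusted p = 1.02e-10). chr17:34323430-34325584 went from 39.4 ± 5.02 CPM in wild type to 70.4 ± 8.80 CPM in tau mice, a log2 change of 0.84 ± 0.09.

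Other leading gains were of like size. chr11:72114568-72116920 rose by 0.83 ± 0.10 and chr17:34136187-34137848 by 0.73 ± 0.10 on the log2 scale (± SE). The most isolated of the 10 gains named was chr8:64406125-64407762 (gain 3), 167 kb from any other domain, with 24.0, 23.3 and 22.1 CPM in wild type and 35.8, 39.0 and 47.3 CPM in tau libraries at 11 months. Its log2 change was 0.82 ± 0.11 (edgeR adjusted p = 2.76e-08), without overlap between the groups. With cross correlation as a covariate its log2 change was 0.73, and it no longer passed (edgeR adjusted p = 0.126).

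The member with the smallest adjusted p was a loss, chr15:34766306-34768406, 2101 bp wide and 52.6 kb from the nearest domain (loss 1). It held 72.3, 79.7 and 67.2 CPM in wild type and 32.8, 41.9 and 31.5 CPM in tau libraries at 11 months. Every tau library lay below every wild type library, with a log2 change of -1.06 ± 0.09 (edgeR adjusted p = 3.46e-14). chr2:174423865-174425981 had 51.2, 47.5 and 46.7 CPM in wild type and 21.5, 28.6 and 22.1 CPM in tau libraries (log2 -1.03 ± 0.10). At 6 months these domains had log2 changes of -0.08 ± 0.10 and -0.11 ± 0.10, neither past the threshold.

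The next 3 losses by adjusted p were far from any other domain. chr11:52577724-52580018 (loss 2), 367 kb from its nearest neighbour, held 54.5, 59.9 and 61.5 CPM in wild type and 32.7, 33.0 and 24.3 CPM in tau libraries at 11 months. chr14:14116667-14118773, 461 kb from its nearest neighbour, held 40.0, 37.1 and 36.6 against 15.9, 21.8 and 14.2 CPM. chr1:180728576-180730531 (loss 3), 241 kb away, held 31.1, 33.3 and 27.3 against 12.4, 14.5 and 12.3 CPM. In each of the 3 the groups were apart, and the log2 changes were -0.98 ± 0.10, -1.16 ± 0.12 and -1.23 ± 0.13 (± SE; edgeR adjusted p = 4.39e-12, 5.84e-12 and 1.25e-11).

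**Figure D2:**
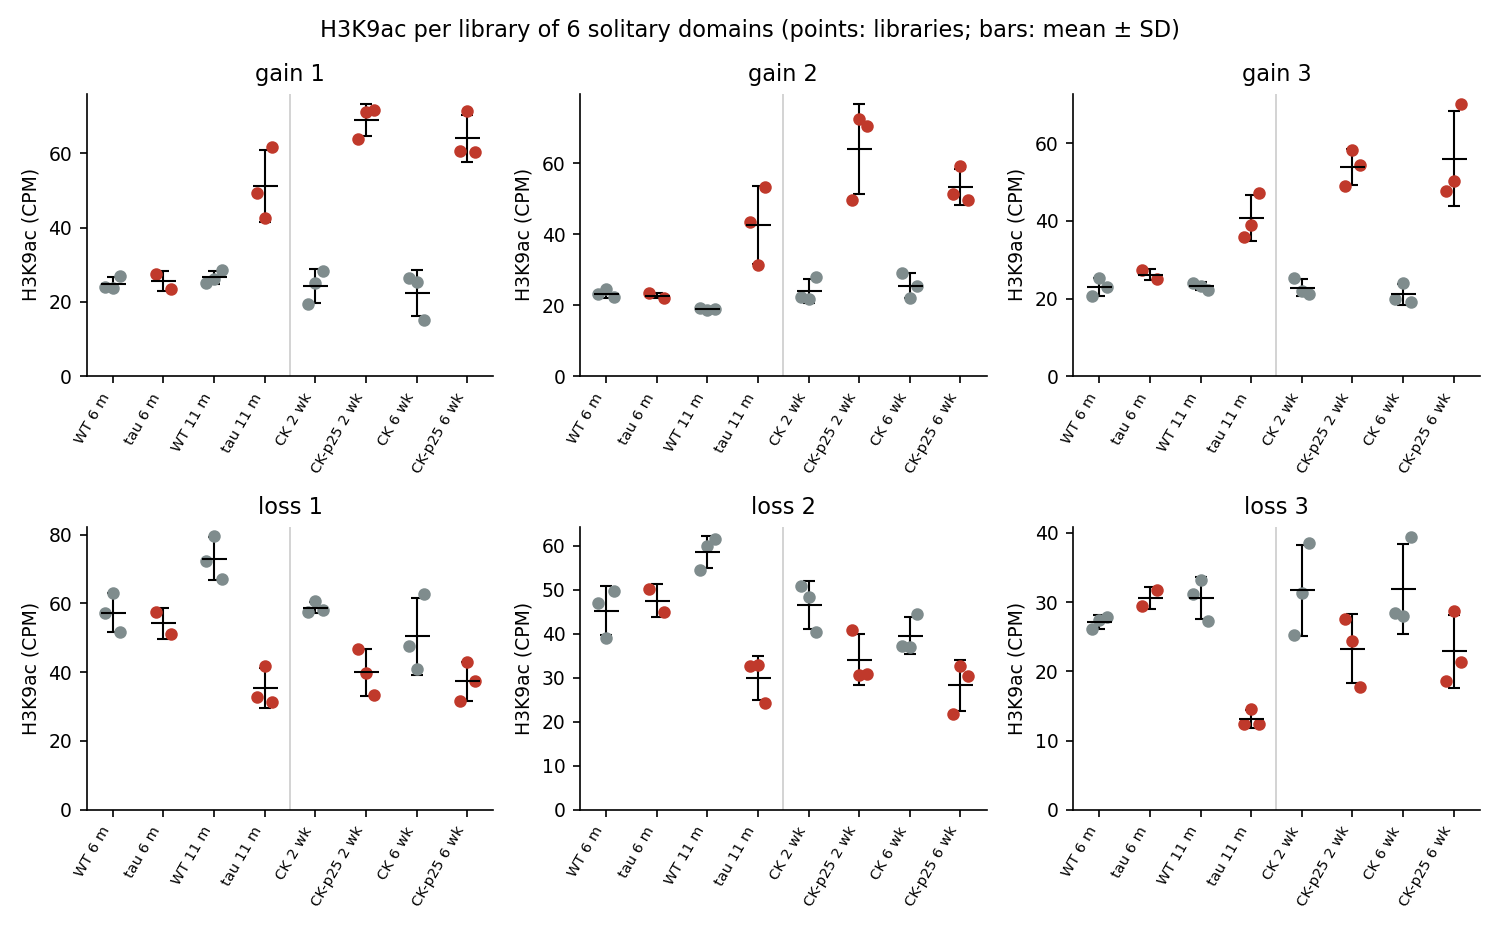
H3K9ac in CPM (y axis) per library (points) with group mean and SD (bars) for 3 members with more and 3 with less of the mark in 11-month tau mice; red points are tau or CK-p25 mice, grey points their controls, and a line parts the mouse series. In gains 1 to 3 every tau library at 11 months and all CK-p25 libraries lie above their controls, while the groups at 6 months overlap; loss 3 is at 12.3 to 14.5 CPM in tau mice at 11 months and at 25.2 to 39.5 CPM in all CK libraries.

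Losses were most frequent among members far from any other domain. Of members 5 to 10 kb from the nearest domain, 117 of 1498 (7.81%) were lower at 11 months. The shares were 7.40% at 10 to 20 kb, 6.81% at 20 to 50 kb, 12.2% at 50 to 100 kb (81 of 664) and 22.0% beyond 100 kb (74 of 337). Gains showed no such order, with 5.81% in the nearest and 5.04% in the farthest class. The nearest and the farthest class had like levels, with medians of 17.8 and 18.0 CPM per kb in the CK-p25 series, and like median standard errors of 0.11. The classes between them had higher median levels, at 20.4, 21.6 and 20.6 CPM per kb. Isolated members also had fewer other domains within 1 Mb, with medians of 76 in the nearest and 25 in the farthest class. The part of this density in the shares was not tested.

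The difference between the nearest and the farthest class was also there within classes of level. Among members of 15 to 25 CPM per kb in the CK-p25 series, whose libraries take no part in the tau comparison, 48 of 423 (11.3%) were lower at 5 to 10 kb and 37 of 105 (35.2%) beyond 100 kb. At 25 CPM per kb or more these were 16 of 441 (3.63%) and 13 of 96 (13.5%), and under 15 CPM per kb 53 of 634 (8.36%) and 24 of 136 (17.6%). Solitary domains over 2500 bp went the same way, from 20.4% lower at 5 to 10 kb to 43.4% beyond 100 kb (49 of 113). Solitary domains under 1000 bp went from 2.53% to 4.42%. Over 14 other settings of the analysis the share of members lower was 1.00% to 9.55% in the nearest class and 2.67% to 23.1% in the farthest, the lowest of both under the cross correlation covariate. These are shares of domains in the same libraries and carry no test.

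**Figure D3:**
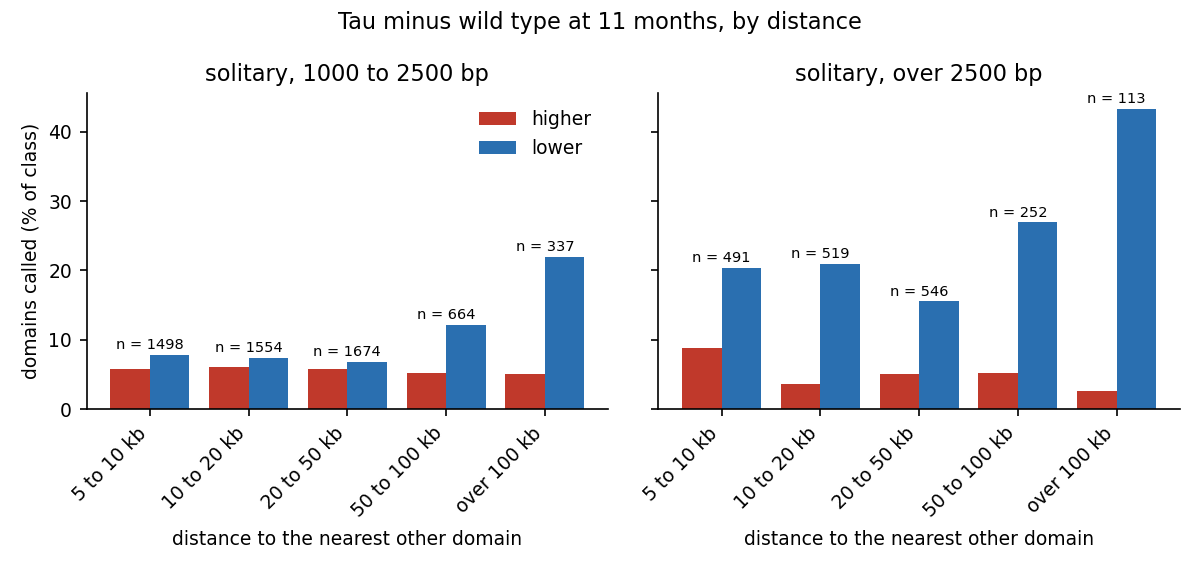
Share of domains (y axis, % of class) called higher or lower in tau mice at 11 months by distance to the nearest other domain (x axis, 5 classes), for members (left) and for solitary domains over 2500 bp (right). Bars for losses reach 22.0% and 43.4% beyond 100 kb, while those for gains stay under 10% in all classes.

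Single members far from any other domain went different ways. The most isolated one, chr13:50512753-50514138, lay 680.5 kb from any other domain. It held 38.9, 45.3 and 38.7 CPM in wild type and 46.0, 44.8 and 41.0 CPM in tau libraries at 11 months, which overlapped (log2 0.11 ± 0.09, edgeR adjusted p = 0.531). Of the 5 most isolated members, chr8:68141479-68143906, chr11:47800759-47803061 and chr9:73815793-73816927 fell, by 0.45, 0.38 and 0.84 on the log2 scale. The other one, chr4:4718738-4720708, was at -0.03 ± 0.07.

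The level of a member went with how often it was called. Members were put in classes by their level in the mouse model that the comparison does not use, so that the same libraries set no class and test. At 11 months 139 of 855 members under 10 CPM per kb were called in tau mice (16.3%), 228 of 876 at 15 to 20 CPM per kb (26.0%) and 31 of 985 at 30 or more (3.15%). Over 14 other settings the share was 2.74% to 27.3% at 15 to 20 CPM per kb and 0.406% to 4.26% at 30 or more, the lowest of both with cross correlation as a covariate. The precision went the other way, with a median standard error of 0.18 in the lowest and 0.07 in the highest class. Gains fell from 10.7% at 10 to 15 CPM per kb to 0.406% at 30 or more, and losses from 16.7% at 15 to 20 CPM per kb to 2.74%. Domains of the same width with a close neighbour were called at 26.6% in the class from 15 to 20 and at 8.47% in the highest, where members stood at 3.15%.

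In CK-p25 mice gains lay mostly in members of low level. At 2 weeks 44 of 912 members under 10 CPM per kb in the tau series were higher and 2 lower, while among 1257 members at 30 or more there were 1 gain and 2 losses. At 6 weeks the counts were 41 and 8 in the lowest and 2 and 3 in the highest class. Over the other settings tried, the share called at 30 CPM per kb or more was at most 0.398% at both times, and that at 10 to 15 CPM per kb was 1.68% to 4.32% at 2 weeks and 1.26% to 4.42% at 6 weeks. Domains of the same width with a close neighbour went the same way. Of 2508 under 10 CPM per kb, 76 were higher and 4 lower at 2 weeks, and 62 and 12 at 6 weeks. Of 866 at 30 or more, 3 were higher and 5 lower at 2 weeks, and 0 and 3 at 6 weeks.

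**Figure D4:**
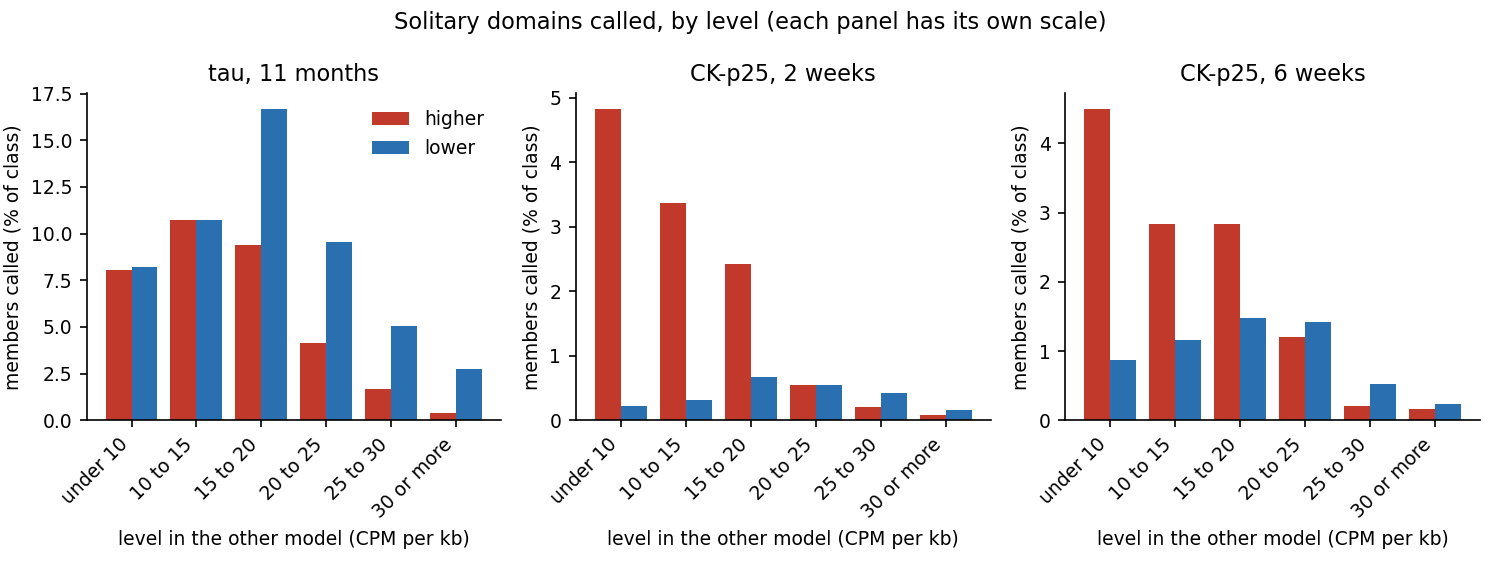
Share of members (y axis, % of class) called higher or lower in tau mice at 11 months and in CK-p25 mice at 2 and 6 weeks, by level in the other mouse model (x axis, 6 classes in CPM per kb); the panels have scales of their own. In tau mice losses peak at 16.7% in the class from 15 to 20, and in CK-p25 mice gains are at 4.82% and 4.50% in the lowest class and at most 0.159% in the highest.

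The effect of tau was tested for a difference between the ages as such, and 293 members passed in edgeR. At 105 of them (1.83% of members) the effect at 11 months was the more positive one and at 188 (3.28%) the more negative one. The background over all domains was 4.23%, with 1.02% more positive and 3.22% more negative. Scaled by library totals alone, the counts were 132 and 154. Of the 105, 94 were also called at 11 months taken alone, with a median log2 change of 0.62 at 11 and -0.16 at 6 months. Of the 188, 182 were, with medians of -0.65 and 0.04. The difference was taken from these same changes, so this overlap and these medians follow in part from the choice of members. The strongest evidence was at chr1:180728576-180730531, where the log2 change was 0.17 ± 0.13 at 6 months and -1.23 ± 0.13 at 11 months (difference -1.40 ± 0.18, edgeR adjusted p = 8.60e-08). Age and sex cannot be told apart here. The count was 126 without tau replicate 1 at 6 months, 177 without wild type replicate 2 at 6 months and 186 without tau replicate 3 at 11 months, and with cross correlation as a covariate it was 47, against 0.934% of all domains.

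At 2 weeks after induction 102 members had more H3K9ac in CK-p25 than in CK mice and 21 had less. The 123 calls were 2.15% of members, against 2.12% of the 38193 domains tested, and by direction members stood at 1.78% higher and 0.367% lower and all domains at 1.51% and 0.613%. All members passed the filter on low counts. Gains had a median log2 change of 0.92 and losses of -0.47. Of the 5727 members 43 gains and 1 loss reached 2-fold, against 321 and 6 of all 38193 domains. Without CK replicate 2 or CK-p25 replicate 2 at 2 weeks, 73 and 66 members passed, and the DESeq2 Wald test called 59, all of them higher.

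The 2-week gains were led by gain 1. chr14:56222081-56224150 held 19.4, 24.98 and 28.4 CPM in CK and 64.0, 71.1 and 71.8 CPM in CK-p25 libraries. Every CK-p25 library was more than 2-fold above every CK library, and the log2 change was 1.51 ± 0.13 (SE; edgeR adjusted p = 3.74e-18). chr11:72114568-72116920 held 26.9, 26.8 and 20.3 against 63.5, 66.7 and 68.2 CPM, again without overlap (log2 1.39 ± 0.12). chr6:121194991-121197321 held 22.3, 21.7 and 27.9 against 49.5, 72.3 and 70.3 CPM (log2 1.44 ± 0.13). chr7:148450889-148452618 followed, at 1.46 ± 0.15, and chr5:121261956-121263563 went from 13.6 ± 1.59 to 39.5 ± 3.15 CPM (SD, n = 3).

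The largest folds at 2 weeks were in members that were nearly bare in CK mice. The domains were called in this series, so a member this low in controls may be listed through libraries where it is high. CK libraries at 2 weeks held 2.00 to 3.92 M reads in domains, so such low CPM rest on few reads. chr11:82833243-82834407, 1165 bp wide, held 2.90, 2.29 and 2.53 CPM in CK and 13.5, 19.0 and 14.5 CPM in CK-p25 libraries, a 6.14-fold change (log2 2.62 ± 0.30). chr12:104680757-104681869 held 2.48, 2.29 and 3.04 against 12.6, 17.2 and 14.1 CPM, a 5.71-fold change. Both were also higher at 6 weeks, at 3.64-fold and 3.56-fold, and in tau mice at 11 months, at 2.69-fold and 2.53-fold. In tau mice the second one overlapped between groups, with 3.13, 3.50 and 3.58 CPM in wild type and 9.12, 3.15 and 12.7 CPM in tau libraries. With cross correlation as a covariate its log2 change was 1.68, and it no longer passed (edgeR adjusted p = 0.268). The member next to it, chr12:104671699-104673519, ends 7.24 kb before it and rose at all 3 stages too, by 0.65 ± 0.13 in tau mice at 11 months and by 0.74 ± 0.16 and 1.09 ± 0.17 in CK-p25 mice at 2 and 6 weeks.

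Losses at 2 weeks were few, at 21 members with a median log2 change of -0.47, and 1 of them reached 2-fold. chr15:34766306-34768406, the leading loss of tau mice, was also the leading loss here, with 57.5, 60.7 and 58.2 CPM in CK and 46.9, 39.6 and 33.4 CPM in CK-p25 libraries. The groups did not overlap, and the log2 change was -0.54 ± 0.12 (edgeR adjusted p = 0.00150). The DESeq2 Wald test did not call it (DESeq2 adjusted p = 0.058). The loss past 2-fold was chr9:74709706-74711771, with 9.52, 18.4 and 18.2 CPM in CK and 7.97, 7.72 and 3.63 CPM in CK-p25 libraries, without overlap, and a log2 change of -1.21 ± 0.28 (edgeR adjusted p = 0.00915). That call was lost without CK replicate 2 or 3 (edgeR adjusted p = 0.176 and 0.0581) and in the DESeq2 Wald test (DESeq2 adjusted p = 0.325).

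At 6 weeks there were 104 gains and 51 losses among members in CK-p25 mice. The 155 calls were 2.71% of members, against 2.65% of the 38193 domains tested. By direction members stood at 1.82% higher and 0.891% lower and all domains at 1.32% and 1.33%. Median log2 changes of called members were 0.89 and -0.58. The 2 shallowest libraries were CK replicate 3 and CK-p25 replicate 3, at 0.996 and 1.31 M reads. Without both 60 members passed, without only the first 97, and without only the second 92. Without CK replicate 2 the count was 90, without CK-p25 replicate 1 it was 76, and the DESeq2 Wald test called 65.

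Gain 1 led at 6 weeks too, with 26.5, 25.3 and 15.2 CPM in CK and 60.7, 71.4 and 60.3 CPM in CK-p25 libraries (log2 1.42 ± 0.15, edgeR adjusted p = 1.23e-12). chr8:64406125-64407762 held 19.9, 24.0 and 19.2 against 47.7, 50.3 and 70.2 CPM and rose by 1.34 ± 0.16. chr16:35938311-35940032 held 30.6, 24.7 and 27.3 against 56.8, 59.8 and 70.2 CPM and rose by 1.10 ± 0.14. None of these overlapped between groups.

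The leading loss at 6 weeks was chr9:123167839-123170227, 105 kb from the nearest domain, with 55.9, 51.3 and 53.7 CPM in CK and 34.7, 39.0 and 27.5 CPM in CK-p25 libraries. The log2 change was -0.63 ± 0.13 (edgeR adjusted p = 0.00111), without overlap. At 2 weeks it held 52.5, 46.6 and 45.1 against 47.6, 48.7 and 52.9 CPM, which overlapped (log2 0.04 ± 0.11). Losses beyond 100 kb from the nearest domain were 6 of 337 members (1.78%) at 6 weeks, against 14 of 1498 (0.935%) at 5 to 10 kb, which are small counts. For solitary domains over 2500 bp the shares were 16.8% and 6.52%. The effect of p25 did not pass the test of a difference between 2 and 6 weeks at any member (0 in edgeR and DESeq2). Of all domains edgeR called 0.00524%. At an unadjusted p under 0.05 in edgeR stood 243 members (4.24%), against 4.76% of all domains.

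Members that changed in CK-p25 mice had mostly changed the same way in tau mice at 11 months, in a comparison with no library in common. Of 102 gains at 2 weeks, 78 (76.5%) were gains in tau mice, which is 23.6% of the 330 tau gains. Of 104 gains at 6 weeks, 87 (83.7%; 26.4% of the tau gains) were shared. Of 21 losses at 2 weeks, 15 (71.4%; 2.99% of the 501 tau losses) were shared, and of 51 losses at 6 weeks, 40 (78.4%; 7.98% of the tau losses). These overlaps rest on the tau fit without a covariate. Once cross correlation was in that fit, 35 tau gains and 62 tau losses passed. At most 35 gains could then be shared at either time, and the overlap with these shorter lists was not counted. Over all domains tested in both series the shared shares of the CK-p25 lists were 65.8% and 93.2% at 2 weeks and 70.9% and 87.2% at 6 weeks, for gains and losses. In sign alone, 103 of the 104 gains and 50 of the 51 losses at 6 weeks went the same way in tau mice at 11 months. Across the 5727 members Spearman's rho between the log2 changes of tau mice at 11 months and CK-p25 mice was 0.409 at 2 weeks and 0.473 at 6 weeks, as a description over domains that share libraries on each axis.

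**Figure D5:**
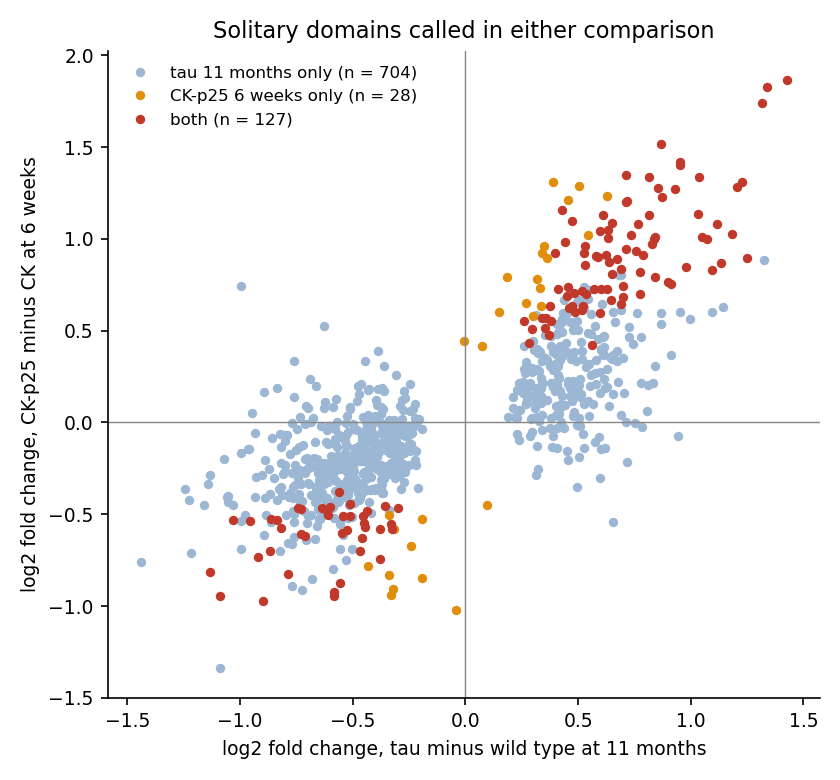
Log2 fold change of tau minus wild type at 11 months (x axis) against CK-p25 minus CK at 6 weeks (y axis) for the 859 members called in either; red points are called in both (127), blue in tau mice only (704) and orange in CK-p25 mice only (28). All red points lie in the quadrants of equal sign.

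A set of 57 of the 5727 members was higher at all 3 stages (tau at 11 months, CK-p25 at 2 and 6 weeks), and 4 were lower. Over the 38167 domains tested in both series the counts were 231 and 115. With cross correlation as a covariate 35 members in all were higher in tau mice at 11 months, so not all of the 57 could pass there. The 57 were picked by their calls at these stages. Their median log2 change was 0.76 in tau mice at 11 months, 1.10 at 2 weeks and 0.98 at 6 weeks. In tau mice at 6 months the median was 0.00, with a range from -0.46 to 0.55. Their median level was 11.6 CPM per kb and 5 of them stood over 20, against a median of 20.8 over all members. Among them were gains 1 to 3, chr11:82833243-82834407 and chr5:124312565-124314062, the latter at 1.32 ± 0.21, 1.67 ± 0.24 and 1.74 ± 0.29 at the 3 stages. It also held chr3:95330817-95331817, the member of lowest level, at 1.21 ± 0.27, 2.01 ± 0.32 and 1.28 ± 0.34, and in this one the call at 6 weeks was lost on leaving out replicate 1 or 3 of the controls or replicate 1 or 2 of the p25 group (edgeR adjusted p = 0.0535 to 0.341). chr5:124312565-124314062 no longer passed in tau mice with cross correlation as a covariate, at a log2 change of 1.22 (edgeR adjusted p = 0.205).

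The 4 members lower at all 3 stages were chr12:106691646-106693619, chr1:194860331-194862611, chr7:4497132-4499445 and chr3:97691706-97693183. The first held 61.4, 56.6 and 64.1 CPM in wild type and 31.2, 41.2 and 29.4 CPM in tau libraries at 11 months, with a log2 change of -0.86 ± 0.09. In CK-p25 mice it was at -0.40 ± 0.11 at 2 weeks and -0.53 ± 0.14 at 6 weeks (edgeR adjusted p = 0.0327 and 0.0144). The call at 2 weeks ended on leaving out any library but control replicate 1, and that at 6 weeks without control replicate 3 or p25 replicate 2 or 3. The second was at -0.53 ± 0.09, -0.39 ± 0.11 and -0.59 ± 0.13. Its call in tau mice ended with cross correlation as a covariate, though its log2 change was then -0.59 (edgeR adjusted p = 0.122). That of the third ended too, at a log2 change of -0.26 against -0.73 without the covariate (edgeR adjusted p = 0.678). At 2 weeks none of the 4 passed the DESeq2 Wald test (DESeq2 adjusted p = 0.278 to 0.447).

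A single member went in opposite directions in the models. chr17:73620285-73621389, 1105 bp wide and 119 kb from the nearest domain, held 12.02, 14.2 and 12.5 CPM in wild type and 7.85, 9.45 and 5.70 CPM in tau libraries at 11 months. The log2 change there was -0.77 ± 0.19 (edgeR adjusted p = 0.00197). It no longer passed without tau replicate 3, at a log2 change of -0.59 (edgeR adjusted p = 0.0549). With cross correlation as a covariate it did not pass either, at a log2 change of -1.06 (edgeR adjusted p = 0.203). In CK mice at 2 weeks it held 5.38, 8.92 and 5.57 CPM, and in CK-p25 mice 14.5, 15.2 and 8.34 CPM, which overlapped. It was higher there by 0.89 ± 0.25 (edgeR adjusted p = 0.0267), and that call was lost on leaving out any of 4 libraries (edgeR adjusted p = 0.139 to 0.261). It was also lost under the covariate (edgeR adjusted p = 0.142) and in the DESeq2 Wald test (DESeq2 adjusted p = 0.293). At 6 weeks it was at -0.00 ± 0.27, with an adjusted p of 0.998 in edgeR.

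Called members and their nearest domain mostly had the same sign, but less often than called domains with a close neighbour. At 11 months the nearest other domain had the same sign as the called member in 510 of 829 cases (61.5%), against 54.6% over all members. Among called domains of the same width with a close neighbour it was 910 of 1103 (82.5%), against 63.3% over all domains of that kind tested. At 11 months the share among called domains was 87.2% where the neighbour lay within 1 kb, 71.8% at 1 to 5 kb, 71.9% for members at 5 to 10 kb, and 54.3% to 59.8% for members farther away. The neighbour was itself called in the same direction for 86 of the 829 called members (10.4%) and in the opposite one for 16, so most neighbours were not called. Among the 1103 called domains with a close neighbour these counts were 277 (25.1%) and 6. In CK-p25 mice the shares of equal sign among called members were 61.9% (65 of 105) at 2 weeks and 72.7% (93 of 128) at 6 weeks, against 88.1% and 89.6% for domains with a close neighbour. Over all tested, called or not, the shares were 53.5% and 53.2% for members and 57.8% and 58.2% for domains with a close neighbour. Among called members of CK-p25 mice the share had no order by distance. From the nearest to the farthest of the 5 classes it was 56.5%, 69.0%, 55.6%, 62.5% and 77.8% at 2 weeks and 87.1%, 55.0%, 82.4%, 83.3% and 54.5% at 6 weeks, over 8 to 40 members a class. In tau mice at 6 months, with no calls, the share over all members was 51.6%. Neighbours share their libraries, and the shares carry no test.

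Just inside and just outside the limits of the rule, the shares called at 11 months were these. Of domains 1000 to 1100 bp wide 13.5% were called, and of those from 900 to under 1000 bp, otherwise chosen alike, 9.60%. At the upper limit the shares were 17.1% for 2400 to 2500 bp and 20.6% up to 2600 bp. For a nearest domain at 5 to 6 kb it was 14.1% and at 4 to 5 kb 14.4%. With 11 to 20 other domains within 1 Mb it was 18.4%, and with 1 to 10 it was 20.9%.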

How the data were processed

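H3K9ac ChIP-seq was analysed in 23 hippocampal libraries of 45 samples. The other 22 are inputs without a column of counts. Per the file headers and the series' design text, the authors deposited 1 set of domains, called with the inputs as controls, and counts of reads per domain and library, which were used as deposited. Per the labels' protocols, sequencing was single-end. The submitters' processing notes list BWA, Picard, MACS2 and mm9. The number of count columns without a sample was 0.

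Members, lists and rules were chosen with earlier results of these data known. Counts were scaled by TMM and tested with edgeR 4.0.16 (robust quasi-likelihood, filterByExpr by group, R 4.3.3), with all groups of a mouse model in 1 fit, no covariate, and Benjamini-Hochberg adjustment over all domains tested at 0.05. All 5727 members were tested in both models. A standard error is the absolute log2 change over the square root of F. CPM are TMM-scaled. Level classes come from the libraries of the other model. DESeq2 1.42.0, other scalings, no filter, a cross correlation covariate, a replicate block, the compared groups alone, autosomes alone, a threshold of 0.01, other limits of the rule and leaving out libraries were tried. Their use on shares by distance, level and nearest domain was added after seeing the data. Tables were made with Python 3.11.15 and pandas 2.3.3.

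The domains named were, per comparison and direction, up to 10 with the smallest adjusted p past 0.05 and a log2 change of 0.3 or more in either direction. To these came the 5 highest and lowest in CPM per kb, up to 10 per direction called alike in tau mice at 11 months and CK-p25 mice at both times, those called in opposite directions, the 5 most isolated and the 5 steadiest of at least 20 CPM. The text describes a part of them. Gene lists and cell markers were not used here, since no annotation of mm9 was. In 22 pairs of replicates the counts differed by more than sampling noise (chi-square per degree of freedom 1.10 to 1.88 over domains with 20 or more reads in the pair). Of 100 simulated 2-fold and 100 simulated 1.5-fold changes, 95 and 73 were recovered in the design at 6 months (43897 domains), 100 and 79 at 11 months (43873), 89 and 62 at 2 weeks (36752) and 88 and 39 at 6 weeks (36754).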

Additional observations from a re-analysis of the deposited data

Results flagged for a closer look

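Tau mice departed from wild type in another way at 11 than at 6 months, by a test of the difference itself (edgeR, adjusted p under 0.05), at 293 members. The 10 named members with a more positive effect at 11 months had these differences between the log2 changes of the ages: 1.28 at chr5:66541722-66543126, 1.22 at chr6:121194991-121197321, 0.93 at chr7:73532248-73534183, 0.91 at chr14:56222081-56224150, 0.89 at chr17:34136187-34137848, 0.83 at chr11:72114568-72116920, 0.78 at chr4:107594527-107596532, 0.74 at chr2:118751572-118753406, 0.67 at chr2:122059562-122061313 and 0.61 at chr9:70054694-70056974. The 10 with a more negative effect had -1.54 at chr15:92963533-92964824, -1.42 at chr9:74709706-74711771, -1.40 at chr1:180728576-180730531, -1.13 at chr5:118477385-118479654, -1.11 at chr14:14116667-14118773, -1.05 at chr11:52577724-52580018, -1.04 at chr1:34806653-34808569, -1.03 at chr12:32243345-32245394, -0.98 at chr15:34766306-34768406 and -0.91 at chr2:174423865-174425981. Mice at 6 months were females and mice at 11 months males, so age and sex cannot be told apart, and cross correlation was apart between the groups at 11 months. With cross correlation as a covariate 5 of these 20 differences no longer passed.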

How the results depend on the processing

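The number of members called changed by over 1.5 times under these settings. The DESeq2 Wald test called 498 at 11 months, 138 for the difference between ages, 59 at 2 weeks and 65 at 6 weeks. At a threshold of 0.01 the counts were 534, 131, 79 and 63. With cross correlation as a covariate they were 97 at 11 months and 47 for the difference between ages. With the compared groups alone in the fit 1 member passed in tau mice at 6 months. Without both shallowest 6-week libraries 60 passed at 6 weeks. Leaving out 1 library at a time gave 533 to 922 at 11 months, 126 to 409 for the difference between ages, 66 to 135 at 2 weeks and 76 to 145 at 6 weeks, and 0 at 6 months and for the difference between 2 and 6 weeks.

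The share of reads in members at 11 months, 0.592 percentage points above wild type, was 0.429 points above with a gap of more than 10 kb in the rule and 0.763 with more than 2 kb. At 6 weeks the 0.458 points became 0.616 with more than 2 kb. Leaving out single libraries gave 0.519 to 0.691 points at 11 months, 0.377 to 0.524 at 6 weeks, 0.106 to 0.269 at 2 weeks and -0.241 to -0.0179 at 6 months. The cause of these changes was not tested.

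With the replicate block 857 members passed at 11 months, 265 for the difference between ages, 132 at 2 weeks, 170 at 6 weeks and 0 at 6 months and between 2 and 6 weeks, all within 1.5 times. Same-numbered libraries did not deviate together (r from -0.0113 to 0.0507 over 11 pairs). Of the named members' calls, the DESeq2 Wald test lost 15 of 31 at 2 weeks, 7 of 31 at 6 weeks and 0 of 33 at 11 months, and the covariate lost 4, 4 and 12. No named call changed its direction under any setting run. Simulated 1.5-fold changes were recovered least often in the CK-p25 comparisons, whose libraries mostly held fewer reads and whose members varied more between replicates (median biological coefficient of variation fitted by edgeR 6.24% against 4.90% in the tau series).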

Other observations

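Within the width limits, the balance of losses and gains in tau mice at 11 months differed between width classes. In the narrowest of 5 classes 7.83% of members were lower and 5.57% higher. The next class had the opposite balance, with 59 of 1054 members lower and 77 higher. In the 3 wider classes losses again outnumbered gains, at 8.10%, 9.29% and 11.8% lower against 7.02%, 5.46% and 4.13% higher. With 11 to 24 other domains within 1 Mb 10.8% were lower, and with 100 or more it was 6.82%. Wider members hold more reads, and the part of depth in these shares was not tested.

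The members chr9:74696233-74697256 and chr9:74709706-74711771 are each other's neighbours, 12449 bp apart, and both were lower in tau mice at 11 months, with log2 changes of -1.09 ± 0.24 and -1.22 ± 0.14 (SE).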
